A study of Mus musculus with 12 samples.

Results

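The genes examined here are the 10 by which a neuron's transmitter is usually read from its RNA: 3 for glutamate (Slc17a6, Slc17a7, Slc17a8), 3 for GABA (Slc32a1, Gad1, Gad2) and 4 for the monoamines (Th, Slc6a3, Hdc, Slc18a2). They were picked by symbol from the 32494 genes of the deposited table of normalized CPM (a gene's reads as a share of the scaled library total), and all 10 reached the minimum mean of 1 CPM used for testing. The RNA came from the hypothalamus of 12 male mice, all with floxed Smc3 and all given tamoxifen, with tissue taken 5 weeks later; an age of 8 weeks is stated in the labels' growth protocol, which does not tie it to a step. The 7 mice of the WT group carry no Cre transgene (Camk2a-cre/ERT2-), and the 5 mice of the cKO group carry it (Camk2a-cre/ERT2+). Camk2a-cre/ERT2 places a tamoxifen-dependent recombinase under the Camk2a promoter, which is active mainly in forebrain excitatory neurons, so other cells of the tissue should keep Smc3. The WT mice lack the transgene, and presence of Cre and loss of Smc3 therefore cannot be told apart by design. Every title, cKO included, also carries the word control, which the labels do not explain. Each mouse is called by its group with its title number, and the labels name no batch.

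Glutamate is loaded into synaptic vesicles by the transporters VGLUT2 (Slc17a6), VGLUT1 (Slc17a7) and VGLUT3 (Slc17a8). VGLUT2 is the main form in hypothalamus, thalamus and brainstem, VGLUT1 that of cortex and hippocampus, and VGLUT3 is made by small groups of neurons that often release another transmitter as well. GABA is made by the glutamate decarboxylases GAD67 (Gad1) and GAD65 (Gad2) and loaded by VGAT (Slc32a1), and GABA neurons are abundant in the hypothalamus. Th makes the dopamine precursor, Slc6a3 encodes the dopamine reuptake transporter of midbrain dopamine neurons, Hdc makes histamine in the tuberomammillary nucleus of the posterior hypothalamus, and Slc18a2 loads all monoamines into vesicles.

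Depth, as whole reads recovered from the CPM steps, came to 68.7 M reads for WT 1, while the other 11 libraries had between 17.1 and 24.0 M. Smc3, the floxed gene, went against its label. It was at 76.8 to 85.7 CPM in the WT libraries and at 116 to 144 CPM in those labelled cKO, and limma gave a log2 fold change of 0.67 with an SE of 0.05 (adjusted p = 3.06e-05). All directions below therefore refer to the libraries labelled cKO, and not to a measured loss of Smc3 transcript. Whether the labels of the groups are exchanged, which would turn every direction, was not tested.

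The libraries also differed in markers of neighbouring brain regions, in a way that crossed the groups. En1, a homeobox gene of the midbrain, was at 9.09 CPM in WT 1, 6.85 in WT 4, 8.32 in WT 5, 4.99 in cKO 12 and 4.51 in cKO 13. In the other 7 libraries it was at most 0.248 CPM, or 6 reads. The same 5 libraries had the highest values of En2, Foxa1, Foxa2, Aldh1a1 and Pitx3, the other genes of a list of midbrain dopamine neuron markers. That list's mean log2(CPM + 1), called the midbrain score below, was 3.14 to 3.66 in them and 1.04 to 1.94 in the other 7. Other lists separated the same 5 libraries: the score was 3.73 to 4.57 against 0.941 to 3.57 for mammillary markers, 2.31 to 2.51 against 1.71 to 2.07 for habenular markers, and 7.88 to 8.34 against 7.20 to 7.70 for oligodendrocyte markers. Markers of the labelled tissue were present but varied. The mean log2(CPM + 1) of 10 hypothalamic markers was 2.56 to 5.39 in WT and 3.21 to 5.82 in cKO. Of these 10 markers 1, Sim1, was past the limma threshold, higher, against 14.1% of all tested genes called. Oxt, the oxytocin gene of the paraventricular and supraoptic nuclei, was at 1.33 CPM in WT 4, 0.651 in WT 5, 0.280 in cKO 12 and 2.33 in cKO 13, against 69.5 to 348 CPM in the 7 libraries without En1 and 145 in WT 1. Hcrt and Pmch, of the lateral hypothalamus, were at 0.372 and 1.03 CPM in WT 11, where no other library was below 10.4 and 14.4 CPM. Results are given over all 12 libraries, and beside that in the 7 libraries with En1 at or under 1 CPM (4 WT and 3 cKO) and the 5 above it (3 WT and 2 cKO). The limit on En1, a gene outside the 10, was set after the values were seen.

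The promoters of 4 genes are shown for the results that follow: Slc17a8, whose transcript differed between the groups, and Th, Slc18a2 and Slc6a3, which were highest in the same 5 libraries. The RefSeq table (GRCm38.p6) held windows for all 10 genes. Each stretch has 250 bases before the start site and 10 after it, 5′ to 3′ on the gene's strand. Slc17a8 lies at chr10:89621240-89621499 on the minus strand, Th at chr7:142899986-142900245 on the minus strand, Slc18a2 at chr19:59260628-59260887 on the plus strand and Slc6a3 at chr13:73536497-73536756 on the plus strand. Capitals mark matches to the motifs named in the next paragraph, and Slc17a8 and Slc6a3 have none in these stretches.
Slc17a8: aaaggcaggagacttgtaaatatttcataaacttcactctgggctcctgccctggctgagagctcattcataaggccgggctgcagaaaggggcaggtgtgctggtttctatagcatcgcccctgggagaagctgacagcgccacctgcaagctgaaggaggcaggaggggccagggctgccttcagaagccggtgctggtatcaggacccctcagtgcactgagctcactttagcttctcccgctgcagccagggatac
Th: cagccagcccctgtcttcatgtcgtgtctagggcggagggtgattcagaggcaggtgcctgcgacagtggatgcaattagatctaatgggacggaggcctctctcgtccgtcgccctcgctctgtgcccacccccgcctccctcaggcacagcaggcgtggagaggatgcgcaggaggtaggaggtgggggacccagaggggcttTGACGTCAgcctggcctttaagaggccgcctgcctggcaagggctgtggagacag
Slc18a2: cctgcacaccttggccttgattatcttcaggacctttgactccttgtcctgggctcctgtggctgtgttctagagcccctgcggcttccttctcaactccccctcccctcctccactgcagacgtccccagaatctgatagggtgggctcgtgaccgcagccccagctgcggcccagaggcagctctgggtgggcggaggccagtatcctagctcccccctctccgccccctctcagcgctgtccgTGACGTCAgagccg
Slc6a3: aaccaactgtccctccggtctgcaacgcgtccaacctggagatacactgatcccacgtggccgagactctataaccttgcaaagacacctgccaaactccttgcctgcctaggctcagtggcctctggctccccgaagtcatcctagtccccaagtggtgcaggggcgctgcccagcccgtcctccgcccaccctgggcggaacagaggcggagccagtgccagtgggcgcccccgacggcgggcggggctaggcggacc

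The motifs searched, on both strands and over 300-base windows, were the cyclic AMP response element TGACGTCA, the Nr4a2-type site AAAGGTCA, the homeodomain core TAATTA, the TATA box TATAAA and a core motif of CTCF. The cyclic AMP element was found in Th, from base 206 of the window, and in Slc18a2, from base 247, where it spans the start site. It occurs in 1.79% of all 32851 promoter windows. TATAAA was in Gad1, and TAATTA was in a second, downstream window of Slc17a6 and of Slc17a8, against 13.6% and 5.29% of all windows. AAAGGTCA and the CTCF core, in 1.51% and 2.43% of all windows, had no match in the windows of the 10 genes. These are matches of letters only.

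Of the glutamate transporters, Slc17a8 was lower in the libraries labelled cKO. It ranged from 7.07 to 11.6 CPM in the WT libraries, with a median of 8.72. In cKO 8, 9, 12, 13 and 14 it was at 3.06, 3.97, 3.92, 4.51 and 5.21 CPM. The groups did not overlap, and the highest cKO library lay below the lowest WT library. Mean levels were 8.73 ± 1.55 CPM (SD, n = 7) and 4.13 ± 0.793 CPM (SD, n = 5), and the cKO mean was 0.473 of the WT mean. By limma over 15359 genes this was a log2 fold change of -0.92 with an SE of 0.12 (adjusted p = 0.00181). The two-sided exact permutation p was 0.00126, the smallest that 792 splits allow. In the same fit 14.1% of all genes were past the threshold and 7.6% were lower, and ranges did not overlap for 6.73%, with 3.2% lower. Values rested on 73 to 526 reads. In tissue of mixed cells, fewer neurons that make VGLUT3 and less VGLUT3 transcript per neuron cannot be told apart.

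Slc17a8 was lower in the libraries labelled cKO on each side of the En1 limit. In the 7 libraries with little En1 it was at 8.72 to 11.6 CPM in WT and 3.06 to 5.21 CPM in cKO, and limma gave -1.10 on the log2 scale with an SE of 0.15 (adjusted p = 0.0203). That fit called 3.16% of 15335 genes, and 2.19% as lower. In the 5 others it was at 7.07 to 7.65 CPM and 3.92 to 4.51 CPM, and limma gave -0.68 with an SE of 0.11 (adjusted p = 0.0482), in a fit that called 0.521% of genes, and 0.429% as lower. With the midbrain score as a covariate it was -0.94 (SE 0.11, limma adjusted p = 4.27e-04), where 22.6% of genes were called and 11.4% were lower. In the authors' deposited table its log2 fold change was -1.08, with a false discovery rate of 1.88e-08, and that table has 4.94% of its genes under 0.05, with 3.3% lower. It was also lower by edgeR, which called 13.7% (7.85% lower), and by DESeq2, which called 17.9% (9.93% lower).

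**Figure D1:**
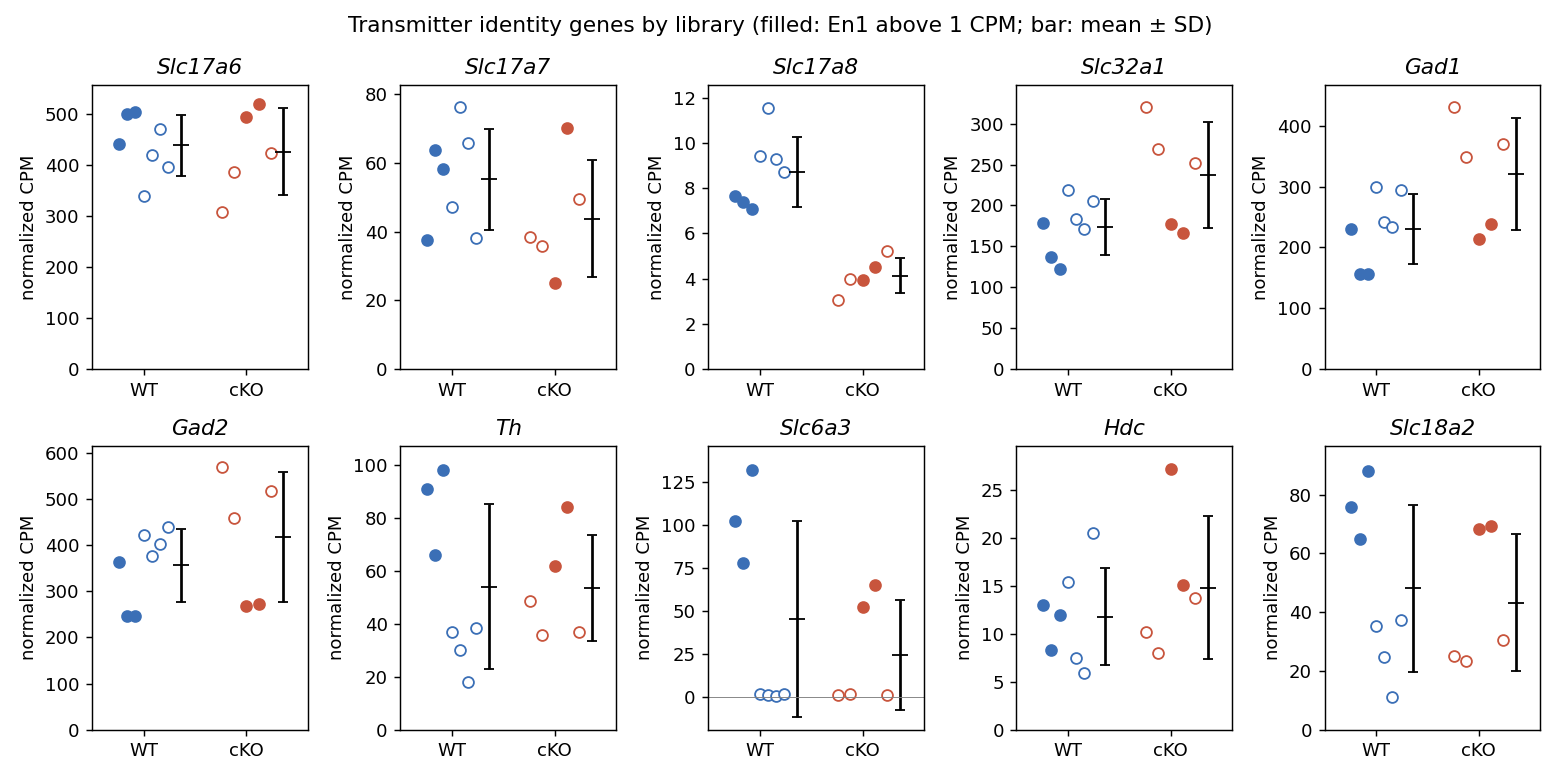
Normalized CPM of each of the 10 genes in every library, with WT in blue and cKO in red, and the mean ± SD of each group in black. Filled points are the 5 libraries with En1 above 1 CPM. Slc17a8 is the gene whose groups do not overlap, with cKO at 3.06 to 5.21 CPM, and Slc6a3 splits into 5 libraries at 52.6 CPM or more and 7 at 1.78 CPM or less.

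Slc17a6, with the highest mean CPM of the 10 over all 12 libraries but below Gad2 in WT 6, WT 15, cKO 8, cKO 9 and cKO 14, showed no difference past the threshold. It ran from 338 to 504 CPM in WT, with a median of 440, and was at 306, 386, 493, 519 and 422 CPM in cKO 8, 9, 12, 13 and 14. The ranges overlapped, the means were 438 ± 59.6 (SD, n = 7) and 426 ± 85.3 CPM (SD, n = 5), and the limma log2 fold change was -0.06 (95% interval -0.33 to 0.22, adjusted p = 0.806). The 3 cKO libraries with little En1 held 306 to 422 CPM, while cKO 12 and cKO 13 were at the top of the scale with WT 4 and WT 5.

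Slc17a7 ran from 37.4 to 76.2 CPM in WT, with a median of 58.3, and was at 38.4, 35.8, 25.1, 70.1 and 49.4 CPM in cKO 8, 9, 12, 13 and 14. Its limma log2 fold change was -0.37 (95% interval -0.86 to 0.13, adjusted p = 0.299), and the groups overlapped over most of their range. With the score of thalamic markers as a covariate, its direction turned, to 0.18 (limma adjusted p = 0.658). Of 9 thalamic markers, 4 were past the limma threshold, all lower, against 14.1% of all tested genes with 7.6% lower, and 5 were not. Prkcd was at 169 CPM in WT and 64.1 in cKO (limma log2 fold change -1.44, adjusted p = 0.0177), and Rgs16 at 82.6 and 44.99 CPM (-0.89, adjusted p = 0.0143). Summed as a mean log2(CPM + 1), the 9 thalamic genes were at 5.62 to 6.76 in WT and 4.75 to 5.82 in cKO. None of 7 tested cortical and hippocampal markers was past the limma threshold, and none had an unadjusted p under 0.05. The part of thalamic tissue in the difference of Slc17a7 was not tested beyond that covariate. For Slc17a8 the same covariate left a limma log2 fold change of -0.77 (adjusted p = 0.0202).

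Ratios of Slc17a8 to the other transporters within each mouse were chosen after the values had been seen and are given without a test. The log2 ratio of Slc17a8 to Slc17a6 was -5.66 ± 0.40 (SD, n = 7) in WT and -6.68 ± 0.24 (SD, n = 5) in cKO, a difference of -1.03. Against Slc17a7 the log2 ratio was -2.63 ± 0.39 (SD, n = 7) and -3.34 ± 0.49 (SD, n = 5), a difference of -0.71. The groups did not overlap in the ratio to Slc17a6 and overlapped in that to Slc17a7.

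GABA genes were higher on average in the libraries labelled cKO, but none of the 3 passed the threshold over the 12 libraries. Slc32a1, the vesicular GABA transporter, ran from 122 to 219 CPM in WT, with a median of 178, and was at 321, 269, 177, 167 and 251 CPM in cKO 8, 9, 12, 13 and 14. The limma log2 fold change was 0.43 (95% interval 0.05 to 0.80, adjusted p = 0.114), and the exact permutation p was 0.0530. cKO 8, 9 and 14 lay above every WT library, while cKO 12 and 13, which had En1, lay inside the WT range.

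Gad1 ran from 156 to 299 CPM in WT, with a median of 234, and was at 432, 350, 213, 239 and 370 CPM in cKO 8, 9, 12, 13 and 14. Again cKO 8, 9 and 14 exceeded all WT libraries and the other 2 did not, and the limma log2 fold change was 0.47 (95% interval 0.03 to 0.90, adjusted p = 0.135). Gad2 ran from 246 to 439 CPM in WT, with a median of 376, and was at 570, 458, 268, 272 and 518 CPM in the same order of cKO mice. Its limma log2 fold change was 0.19 (95% interval -0.27 to 0.65, adjusted p = 0.586). The 4 lowest Gad2 values of all 12 libraries were those of WT 4, WT 5, cKO 12 and cKO 13, and the fifth was that of WT 1.

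Within the 7 libraries with little En1, the 3 GABA genes did not overlap between the groups. Slc32a1 was at 172 to 219 CPM in WT and 251 to 321 CPM in cKO (limma log2 fold change 0.52, SE 0.10, adjusted p = 0.0353). Gad1 was at 234 to 299 and 350 to 432 CPM (0.52, SE 0.10, limma adjusted p = 0.0365), and Gad2 at 376 to 439 and 458 to 570 CPM (0.33, SE 0.08, limma adjusted p = 0.0595). Each had an exact permutation p of 0.0286, the smallest that 35 splits of 4 against 3 allow. In all, 4 of the 10 genes had ranges that did not overlap there, where 22.1% of 15335 tested genes did and 11.6% were higher. Limma called 0.965% of genes as higher there, Slc32a1 and Gad1 among them. Of 10 hypothalamic markers 2 were also higher in that fit, named here after their values were seen, and the list's median log2 fold change was 0.71. Otp was at 43.4 to 64.5 CPM in WT and 80.7 to 105.5 CPM in cKO (0.78, limma adjusted p = 0.0287), and Sim1 at 15.04 to 18.6 and 24.6 to 27.2 CPM (0.63, limma adjusted p = 0.0191). The pituitary marker Gh (1.95, limma adjusted p = 0.0324), the cortical marker Fezf2 (0.83, limma adjusted p = 0.0227) and the neuron marker Nefm (0.50, limma adjusted p = 0.0494) were also past the threshold there, higher. The part of these markers in the difference of the GABA genes was not tested.

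In the 5 libraries with En1, differences of the GABA genes were smaller and not past the threshold. Slc32a1 was at 122 to 178 CPM in WT and 167 to 177 CPM in cKO (limma log2 fold change 0.26, adjusted p = 0.370), Gad1 at 156 to 231 and 213 to 239 CPM (0.34, limma adjusted p = 0.306), and Gad2 at 246 to 362 and 268 to 272 CPM (-0.05, limma adjusted p = 0.880). Whether the differences on the 2 sides of the En1 limit differ from each other was not tested. Over all 12 libraries with the midbrain score as a covariate, Slc32a1 (0.35, SE 0.09, limma adjusted p = 0.0179) and Gad1 (0.37, SE 0.10, limma adjusted p = 0.0189) were past the threshold, and Gad2 was not (0.08, SE 0.10, adjusted p = 0.552). That fit called 11.2% of all tested genes as higher.

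**Figure D2:**
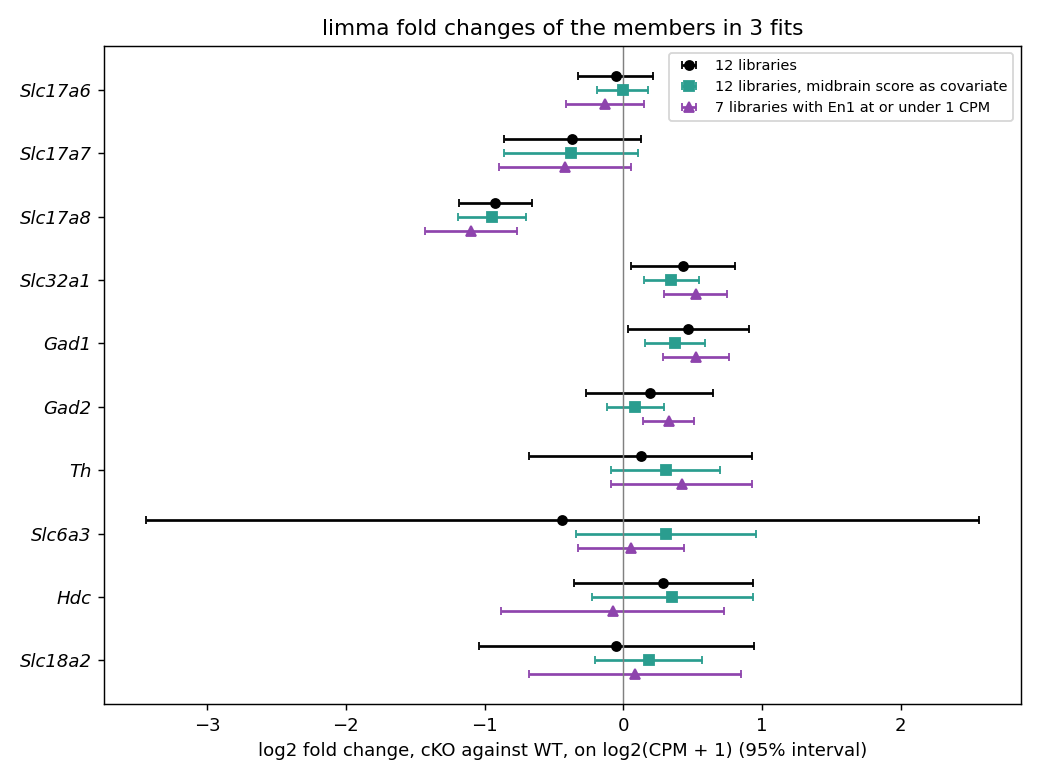
limma log2 fold changes of the 10 genes, cKO against WT, on the log2(CPM + 1) scale with 95% intervals, over 12 libraries (black), with the midbrain score as a covariate (green) and in the 7 libraries with En1 at or under 1 CPM (purple). The interval of Slc17a8 lies below 0 in each fit, and that of Slc6a3 is the widest over 12 libraries.

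The CPM ratio of Gad1 to Gad2 was 0.580 to 0.708 in WT and 0.715 to 0.880 in cKO, so the ranges lay almost edge to edge. This ratio was chosen after its values were seen and was not tested. An antisense gene, Gad1os, overlaps Gad1 but was at a mean of 0.206 CPM, and the strand setting of the counting is not given in the sources used here. Antisense genes that overlap Slc32a1 and Slc18a2 were not analysed here.

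The dopamine genes separated the libraries and not the groups. Slc6a3 was at 102, 78.1 and 132 CPM in WT 1, 4 and 5, and at 52.6 and 65.2 CPM in cKO 12 and 13. In the other 7 libraries it was at 0.826 to 1.78 CPM, between 20 and 40 reads. No library lay between 1.78 and 52.6 CPM, and the 5 high libraries are those with En1. Over 12 libraries the limma log2 fold change was -0.44 (95% interval -3.44 to 2.56, adjusted p = 0.864), an interval too wide to place the groups. Among the 7 low libraries it was 0.06 (SE 0.17, adjusted p = 0.873), with 0.826 to 1.78 CPM in WT and 1.09 to 1.57 CPM in cKO. Among the 5 high libraries the 2 cKO values lay below the 3 WT values (limma log2 fold change -0.79, SE 0.19, adjusted p = 0.108), and En1 itself was lower in those 2, at 4.51 and 4.99 against 6.85 to 9.09 CPM.

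Th, the rate-limiting enzyme of dopamine synthesis, was at 91.2, 66.0 and 98.3 CPM in WT 1, 4 and 5 and at 62.0 and 84.1 CPM in cKO 12 and 13. The other libraries held 18.1 to 48.6 CPM, so unlike Slc6a3 the gene was well expressed in every library. Its limma log2 fold change was 0.12 (95% interval -0.68 to 0.93, adjusted p = 0.855). In the 7 libraries with little En1 it was 0.42 (SE 0.23, limma adjusted p = 0.292), with WT at 18.1 to 38.3 CPM and cKO at 35.7 to 48.6 CPM. The CPM ratio of Slc6a3 to Th was 0.776 to 1.34 in the libraries with En1 and 0.0225 to 0.0465 in the others.

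Slc18a2, the vesicular monoamine transporter, followed the same division, with 65.1 to 88.2 CPM in the 5 libraries with En1 and 11.03 to 37.3 CPM in the rest. Means were 48.1 ± 28.5 CPM (SD, n = 7) in WT and 43.2 ± 23.4 CPM (SD, n = 5) in cKO, and the limma log2 fold change was -0.05 (95% interval -1.04 to 0.94, adjusted p = 0.957). Hdc did not follow that division. It ran from 5.91 to 20.5 CPM in WT, with a median of 11.998, and was at 10.2, 7.99, 27.2, 15.1 and 13.7 CPM in cKO 8, 9, 12, 13 and 14. The groups overlapped, and the limma log2 fold change was 0.29 (95% interval -0.36 to 0.93, adjusted p = 0.550). Without cKO 12 the log2 fold change was 0.05 (limma adjusted p = 0.919). In the 5 libraries with En1 it was 0.84 (SE 0.24, limma adjusted p = 0.154), with WT at 8.33 to 13.03 CPM and cKO at 15.1 and 27.2 CPM, and in the 7 others -0.08 (SE 0.36, limma adjusted p = 0.919). cKO 12 held the highest Hdc value and WT 11, the library almost without Hcrt and Pmch, the lowest.

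**Figure D3:**
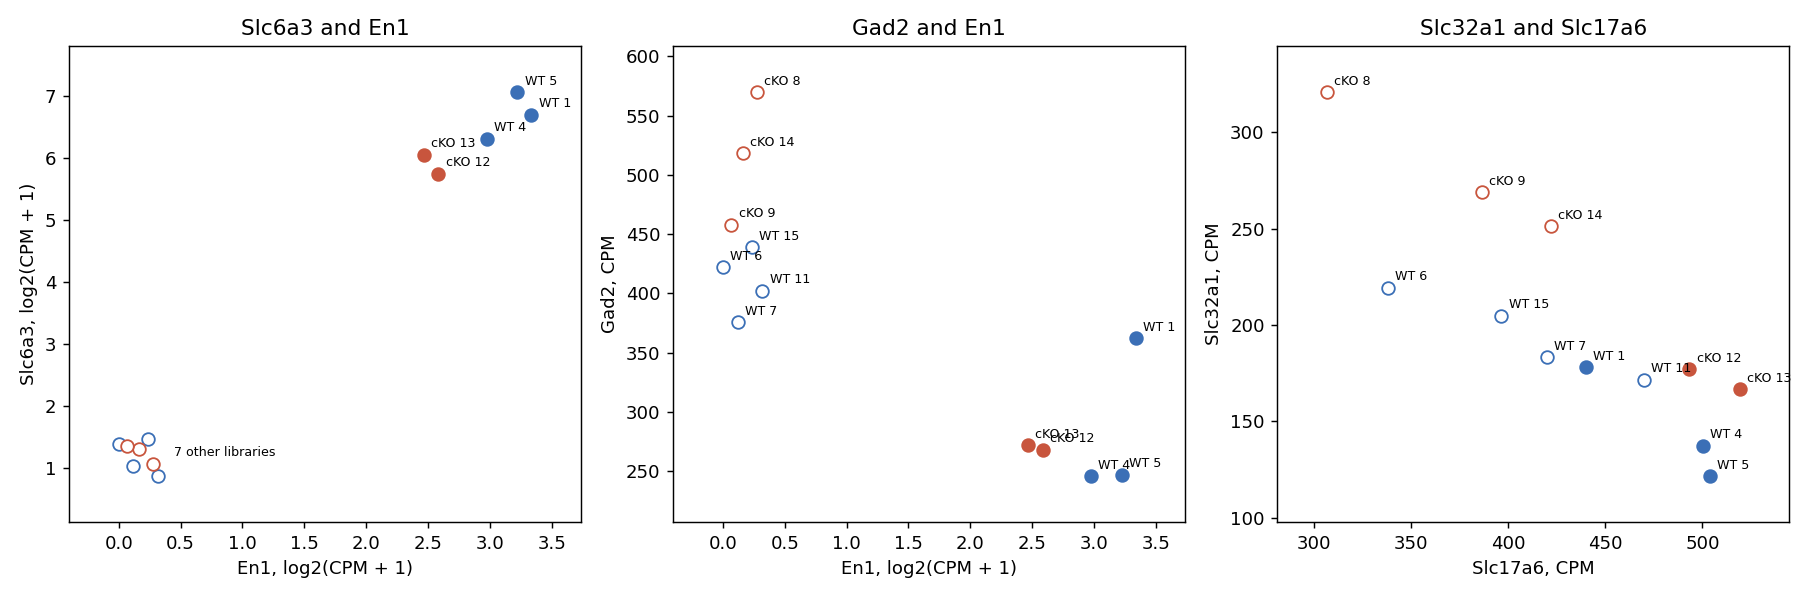
Left, Slc6a3 against En1, both as log2(CPM + 1). Middle, Gad2 in CPM against En1. Right, Slc32a1 against Slc17a6, both in CPM. Each point is a library, blue for WT and red for cKO, filled where En1 is above 1 CPM. The 5 filled points stand apart on the left, and on the right Slc32a1 tends to be lower where Slc17a6 is higher.

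Counted together, 1 of the 10 genes was past the threshold over 12 libraries, lower, where 14.1% of all tested genes were called and 7.6% were lower. Ranges did not overlap for 1 of the 10, against 6.73% of tested genes. Slc17a8, Slc32a1 and Gad1, 3 of the 10, had an unadjusted limma p under 0.05, as did 4773 of the 15359 genes tested. The median log2 fold change of the 10 was 0.04, and that of all tested genes 0.01. The count is near the background share, so it says nothing of the 10 as a set.

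Compared per length, as CPM per kb of summed exons in GENCODE M21, the order of levels in WT was Slc17a6, Slc32a1, Gad2, Gad1, Th, Slc6a3, Slc17a7, Slc18a2, Slc17a8 and Hdc. Slc17a6 was at 81.2 ± 11.03 CPM per kb (SD, n = 7), Slc32a1 at 62.1 ± 12.4 and Gad2 at 60.6 ± 13.5. The place of Slc6a3 is that of a mean over separate clusters: in the 7 libraries with little En1, 4 of them WT, it was the lowest of the 10 genes. Slc17a6 exceeded Slc32a1 in 6 of 7 WT libraries but in 2 of 5 cKO libraries, those with En1. Gad2 exceeded Gad1 in 12 of 12 libraries. Slc17a6 and Slc32a1 changed places from library to library (8 of 12 with the former above), as did Slc32a1 and Gad2 (10 of 12). So did Gad1 and Th (8 of 12) and Slc17a7 and Slc18a2 (6 of 12), and these neighbours hold no fixed order. Both of the latter pairs changed places mostly along the En1 split. Th was above Gad1 in the libraries with En1 except cKO 12, and in no other library. Slc18a2 was above Slc17a7 in every library with En1 and, of the others, in WT 15 alone. Slc6a3 and Slc17a7 also changed places (5 of 12), wholly along the En1 split. Slc6a3 was above in the 5 libraries with En1 and below in the 7 others. Slc17a8 and Hdc, at 1.85 ± 0.33 and 1.85 ± 0.80 CPM per kb (SD, n = 7), were level in WT. In cKO, Hdc was the higher in all 5 libraries, at 2.32 ± 1.17 against 0.876 ± 0.168 CPM per kb (SD, n = 5). Taking the longest transcript as length moved Gad1 above Slc32a1 and Gad2, since its summed exons (7639 bases) are longer than its longest transcript (3601 bases), and also put Slc17a7 above Slc6a3 and Hdc above Slc17a8.

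**Figure D4:**
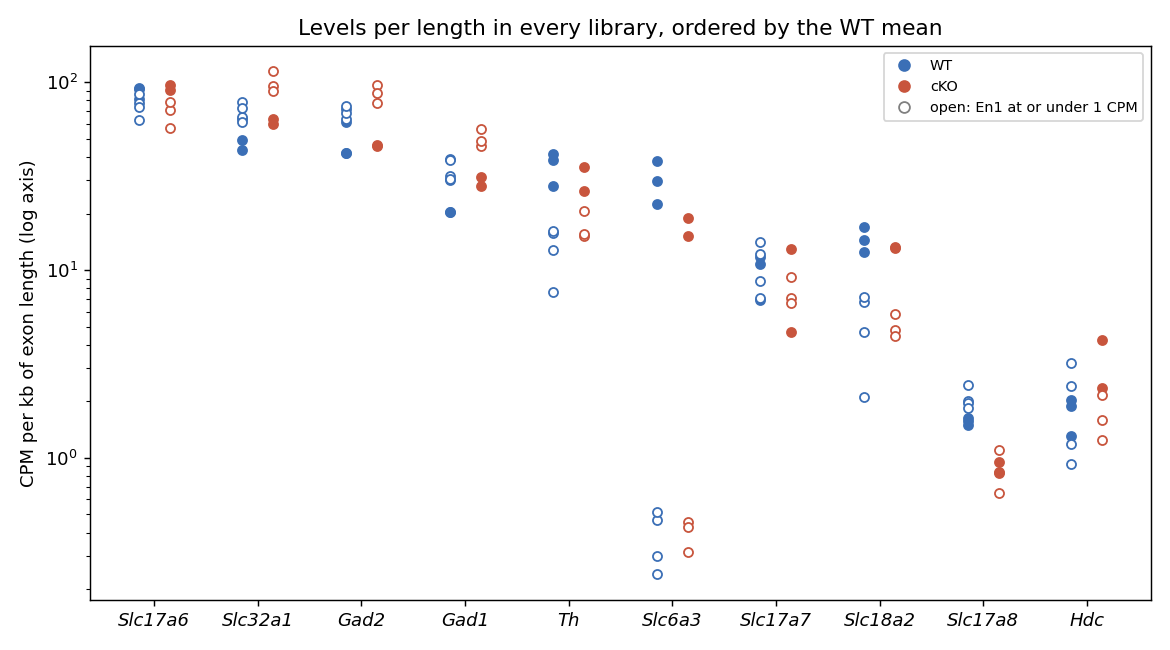
CPM per kb of summed exon length for each gene in every library, on a log axis, ordered by the WT mean, with WT in blue, cKO in red and open points for libraries with En1 at or under 1 CPM. The values run from 0.239 CPM per kb for Slc6a3 to 115 for Slc32a1.

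How the genes moved together among mice was read from deviations of log2(CPM + 1) from the group mean, for 10 pairs, with exact permutation within groups and p-values adjusted over the 10. These permutations did not take the En1 split into account, although Gad2 did not overlap across it (246 to 362 CPM with En1, 376 to 570 without) and Slc17a6, Slc32a1 and Gad1 also leaned with it. Slc17a6 and Slc32a1 moved in opposite directions, with a Pearson r of -0.94 over 12 libraries (exact permutation p = 1.16e-05, adjusted 8.60e-05) and a Spearman rho of -0.97 (exact permutation p = 1.65e-06, adjusted 1.65e-05). Without WT 6 and cKO 8, the libraries farthest out, r was -0.96. In the 7 libraries with little En1 it was -0.98 (exact permutation p = 0.00694, adjusted 0.0694). Relative to its group mean, a library with more VGLUT2 transcript tended to hold less VGAT transcript. CPM values share a total, so a rise in some genes lowers the share of others. Of that total, Slc17a6 held at most 519 CPM and Slc32a1 at most 321 CPM. Any part of the shared total in this relation was not tested.

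Gad1 and Slc32a1 rose and fell together, with r = 0.97 (exact permutation p = 1.26e-04, adjusted 2.09e-04), rho = 0.93 (exact permutation p = 2.27e-04, adjusted 5.66e-04), and r = 0.98 without WT 4 and cKO 12. In the 7 libraries with little En1, r was 0.92 (exact permutation p = 0.0417, adjusted 0.104). Gad1 and Gad2 had r = 0.97 (exact permutation p = 3.14e-05, adjusted 8.60e-05) and rho = 0.93 (exact permutation p = 3.31e-05, adjusted 1.65e-04), with r = 0.96 without the same 2 libraries. In the 7 libraries it was 0.83 (exact permutation p = 0.0556, adjusted 0.111). Gad2 and Slc32a1 had r = 0.95 over 12 libraries (exact permutation p = 2.84e-04, adjusted 4.06e-04) and 0.64 in the 7 (exact permutation p = 0.188, adjusted 0.243). Slc17a6 with Slc17a7 gave r = 0.30 (exact permutation p = 0.407, adjusted 0.452), and 0.53 in the 7 libraries with little En1 (exact permutation p = 0.243, adjusted 0.243). With Slc17a8 it gave r = 0.05 (exact permutation p = 0.884, adjusted 0.884), -0.38 without WT 6 and cKO 8, and 0.62 in the 7 libraries (exact permutation p = 0.222, adjusted 0.243). Neither relation passed 0.05.

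For the monoamine genes the 12 libraries form separate clusters, so these pairs were read only in the 7 libraries with little En1. There Th and Slc18a2 had r = 0.90 (exact permutation p = 0.0347, adjusted 0.104) and rho = 0.86 (exact permutation p = 0.0417, adjusted 0.104). Hdc and Slc18a2 had r = 0.88 (exact permutation p = 0.0208, adjusted 0.104), and Th and Slc6a3 r = 0.62 (exact permutation p = 0.236, adjusted 0.243). For Slc6a3 and Slc18a2 r was 0.83 (exact permutation p = 0.0764, adjusted 0.127). None of the 10 pairs was past 0.05 after adjustment in the 7 libraries. The smallest exact permutation p allowed there is 0.00694, and Slc17a6 with Slc32a1, which reached it, adjusted to 0.0694. With so few libraries, this cannot show that a relation is absent.

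The tested genes whose deviations were most like a member's over the 12 libraries, by Pearson r, are given as a description with no test. For Slc6a3 and Th these coefficients follow the split of the libraries by En1. For Slc6a3 they were En1 (0.99), En2 (0.98), Chrnb3 (0.98), Gucy2c (0.97) and Myoc (0.97). For Th they were Ddc (0.98), which makes dopamine from the product of Th, Gch1 (0.96), which makes the cofactor of Th, then Slc18a2 (0.95), Slc39a4 (0.95) and Chrnb3 (0.92). Slc32a1 was most like Gga2 (0.98), Gad1 (0.97), Nrsn2 (0.97), Islr2 (0.96) and Stoml3 (0.96). Slc17a6 was most like Rtn4 (0.96), Adam9 (0.95), Prkcb (0.95), Grin2a (0.94) and Fam168a (0.94). Slc17a7 was most like Gabrd (0.94), Ramp3 (0.93), Plek (0.92), Zfand6 (0.92) and the thalamic marker Prkcd (0.92). Hdc was most like Scn7a (0.94), Pam (0.93), Pdzph1 (0.92), Cbfb (0.92) and Plagl1 (0.92).

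Few other genes of the same transmitter systems were past the threshold. Of 59 enzymes, transporters, receptors and identity factors, 46 were tested and 2 (4.35%) were past the limma threshold, against 14.1% of all tested genes. An unadjusted limma p under 0.05 was found for 10 of the 46, a smaller share than the 4773 of 15359 over all tested genes, and the median log2 fold change of the 46 was 0.04. Abat, which breaks GABA down, was higher, at 590 CPM in WT and 654 in cKO (log2 fold change 0.15, SE 0.04, limma adjusted p = 0.0389). Hnmt, which inactivates histamine, was higher, at 22.5 and 27.5 CPM (0.28, SE 0.08, limma adjusted p = 0.0367). Neither call held in every fit without 1 mouse. The count was 0 without WT 1, WT 6, WT 7, WT 11 or cKO 12, each left out alone, and 4 without WT 5. The log2 fold changes of Abat and Hnmt in those fits are not given here. None of 13 glutamate genes, 7 amine receptors or 4 acetylcholine and glycine genes passed by limma, and 3, 2 and 0 of them had an unadjusted p under 0.05, no larger a share than over all tested genes. Ddc had a log2 fold change of 0.05 (limma adjusted p = 0.922), and Dlx1, a homeobox gene of forebrain GABA neurons, 0.55 (limma adjusted p = 0.410). Chat and Slc18a3, of acetylcholine neurons, were under the minimum, at means of 0.919 and 0.716 CPM in WT. Dbh, Slc6a2 and Pnmt, the noradrenaline and adrenaline genes, reached at most 0.0986 CPM in the libraries with En1 and at most 0.0865 CPM elsewhere.

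With the midbrain score as a covariate, 12 of the 46 related genes were past the threshold, 10 higher and 2 lower, against 22.6% of all tested genes. The 2 lower were Hrh3, the histamine autoreceptor (log2 fold change -0.43, limma adjusted p = 0.00141), and Drd5, a dopamine receptor (-0.73, limma adjusted p = 0.00187), which over 12 libraries without it had limma adjusted p-values of 0.0614 and 0.0628. Among the higher were the homeobox genes Dlx5 (0.52, limma adjusted p = 0.0230) and Dlx6 (0.55, limma adjusted p = 0.00635) of forebrain GABA neurons. In the 7 libraries with little En1, Dlx6 was at 4.07 to 5.10 CPM in WT and 7.06 to 12.3 CPM in cKO (limma adjusted p = 0.0345), and Drd5 was also past the threshold (-0.63, limma adjusted p = 0.0345). Dlx5 (0.67, limma adjusted p = 0.0689) and Hrh3 (-0.37, limma adjusted p = 0.0692) were not past it there. These 4 genes were chosen after their values were seen.

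Of 10 general neuron markers, 3 were past the limma threshold, all higher, against 14.1% of all tested genes, and 7 were not. Map2, a dendritic cytoskeleton protein, was at 1267 CPM in WT and 1507 in cKO (limma log2 fold change 0.25, adjusted p = 0.0162), and Stmn2 at 484 and 555 CPM (0.20, limma adjusted p = 0.0224). With the mean log2(CPM + 1) of these 10 as a covariate, Slc32a1 (0.93, limma adjusted p = 0.00451), Gad1 (1.06, limma adjusted p = 0.00440) and Gad2 (0.80, limma adjusted p = 0.0207) were past the threshold, higher, and Slc17a8 (-0.87, limma adjusted p = 0.0109) was lower. That fit called 9.76% of all tested genes, 5.01% as higher and 4.75% as lower. Its covariate was at 8.75 to 8.99 in WT and 8.97 to 9.13 in cKO, so the score overlapped little between the groups. In that fit Slc17a6 was at -0.39 (limma adjusted p = 0.0573) and Slc17a7 at -0.84 (limma adjusted p = 0.0623). None of the 6 astrocyte, 6 oligodendrocyte, 6 microglial or 6 endothelial markers passed over the 12 libraries by limma, and 3 microglial markers had an unadjusted p under 0.05. With the midbrain score as a covariate, the fit in which Slc32a1 and Gad1 passed, 3 astrocyte markers (Aqp4 at 0.37, Gfap at 0.29 and Aldh1l1 at 0.16), the oligodendrocyte marker Mobp (0.37) and the endothelial marker Flt1 (0.14) were also past the limma threshold, higher. In that fit 5 of 10 neuron markers were higher and 6 of 9 thalamic markers lower, with a thalamic median of -0.80. It called 22.6% of all tested genes, 11.2% as higher and 11.4% as lower. The hypothalamic marker Sim1 (0.50, limma adjusted p = 0.00225) and the habenular marker Chrna3 (0.37, limma adjusted p = 0.0120) were also past the threshold in that fit, higher. These glial, endothelial, hypothalamic and habenular genes are named after their values were seen. The part of all these markers in the difference of the GABA genes was not tested.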

How the data were processed

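Per the labels' protocols, mRNA was isolated from total RNA and libraries were made with an NEBNext Ultra II RNA kit. The submitters' processing notes name bcl2fastq, FastQC 0.11.9, STAR 2.7.9a, SAMtools, Subread and featureCounts. Genome build, annotation and strand setting are not given in the sources used here. The authors deposited normalized CPM for 12 libraries. Their second deposited table holds log2 fold changes, log2 mean CPM, p-values and false discovery rates. Each CPM value was a whole multiple of 1 step per library (tolerance 0.01 reads, 100% of values), so reads were recovered, and 0 columns went unused. The 95% intervals printed are limma's and rest on the spread between mice.

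The main test was limma 3.58.1 (R 4.3.3), with a mean-variance trend and no covariates, on log2(CPM + 1) of the 15359 genes whose mean reached 1 CPM, with Benjamini-Hochberg adjustment and a threshold of 0.05. This scale understates changes of low genes. Single values had two-sided exact permutation tests (10 over the members, unadjusted). The labels number the mice but do not name their litters or batches, and p-values measure the spread between these samples. On simulated counts for this comparison with 200 genes changed by 1 log2 unit, limma recovered 184 of 197 tested (93.4%) among 15349 genes, with 10 false calls (5.15%). Count tests on recovered reads, edgeR 4.0.16 (2097 genes called) and DESeq2 1.42.0 (2747), were alternatives.

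The members and gene lists were chosen with earlier results of these data known. Named genes were all members, related genes past the threshold (at most 3 per list and direction) with set ones (Ddc, Chat, Slc18a3 and Dlx1, and 1 more that is not reported here), the 5 genes most alike to 6 members, and the 2 largest calls of the thalamus, cortex, mammillary and neuron lists. The fits by En1 and the midbrain score were added after seeing the data.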

Additional observations from a re-analysis of the deposited data

Results flagged for a closer look

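WT 1 had 68.7 M recovered reads, with the next WT library at 24.0 M, a gap that is large for a group of 7. It was the only such value among 24 groups of values examined (the 10 genes, Smc3 and depth in each group), where chance gives about 1 in 20, or 1.2. Without WT 1 the log2 fold change of Slc17a8 was -0.95 (limma adjusted p = 0.00458).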

How the results depend on the processing

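Slc17a8 was past the limma, edgeR or DESeq2 threshold in all 15 other settings (log2 fold change -1.10 to -0.68, highest adjusted p 0.0482) and in the 12 fits that each left out 1 mouse (-0.99 to -0.84, highest adjusted p 0.00722). No paired analysis was possible because the groups share no mouse numbers. For the 10 genes, 230 of 270 values kept direction and side of the threshold, 0 lost the threshold, 9 gained it and 31 changed sign, none of the latter past it. Only Slc17a8 was past the threshold in the main fit, so only its 27 values could lose it. Why the values moved was not tested.

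Members past the threshold numbered 3 with arrayWeights, 4 with the neuron score, 3 with the midbrain score, 3 in the 7 libraries with little En1, and 1 in each fit without 1 mouse. Tested genes past it numbered 5126 with arrayWeights, 1499 with the neuron score, 650 with the thalamus score, 3468 with the midbrain score, 484 in the 7 libraries and 80 in the 5 others, with fewer samples, and 1158 (without WT 1) to 2302 in fits without 1 mouse. In the main fit they numbered 2172, after median centring 2431 and after quantile normalization 2040. They numbered 1994 without trend, 1544 over all genes above 0, 2747 by DESeq2 and 2830 with the cortex score. Related genes past it numbered 4 after median centring, 1 after quantile normalization and 1 without trend, 0 over all genes above 0 (9 at an unadjusted p under 0.05), 13 with arrayWeights, 6 by DESeq2, 5, 0 (8 unadjusted), 10 and 12 with the neuron, thalamus, cortex and midbrain scores, 0 (7 unadjusted) in the 5 libraries with En1, and 0 to 4 without 1 mouse, with the value 0 without WT 1, 6, 7, 11 or cKO 12. Members with an exact permutation p under 0.05 numbered 1 over 12 libraries, 4 in the 7 libraries, and 1 to 3 without 1 mouse, the 3 being without cKO 12 or cKO 13. The exact test was not run over all genes, so these counts have no background share. In the 7 libraries such a p needs groups that do not overlap, which 22.1% of 15335 tested genes had there. The counts are therefore not read as a result about the members. Pairs past 0.05 numbered 7 over 12 libraries and 0 in the 7 libraries with little En1. There the pair at the smallest p allowed adjusted only to 0.0694, so the 0 cannot show that relations are absent. Of the 7 pairs over 12 libraries, the 3 among Th, Slc6a3 and Slc18a2 are coefficients across separate clusters and are not read as relations. Gad2 did not overlap across the En1 split either, so the coefficients of its pairs over 12 libraries also span that split.

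Signs changed for genes not past the threshold. In the 5 libraries with En1, Slc17a6 was 0.075, Gad2 -0.054 and Th -0.21. In the 7 others Slc6a3 was 0.056, Hdc -0.076 and Slc18a2 0.083. With the midbrain score Slc6a3 was 0.31 and Slc18a2 0.18, with the cortex score Slc18a2 was 0.018, and with the thalamus score Slc17a7 was 0.18, Th -0.51 and Hdc -0.54. Th was -0.74 and Hdc -0.11 with arrayWeights, and Th was -0.029 by edgeR, -0.027 by DESeq2 and -0.55 with the neuron score. Without 1 mouse, Slc17a6 ran from -0.13 to 0.057, Th from -0.095 to 0.30, Slc6a3 from -1.17 to 0.15 and Slc18a2 from -0.35 to 0.14. Slc17a8, at 73 reads in its lowest library, and Slc6a3, at 20, are the genes most limited by depth.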
